A study of Mus musculus with 28 samples.

Results

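The enzymes that methylate lysine 9 of histone H3 (H3K9), and the zinc finger proteins that bind the G9a complex, were followed as transcripts in mouse fibroblasts undergoing reprogramming and in induced pluripotent stem cells (iPSC). The members were taken by symbol from a list of 8 genes, and all 8 were found among the 54109 genes of the reprogramming table and the 54838 of the iPSC table. The study asked in which culture conditions reprogramming depends on H3K9 dimethylation, and the members make, or help to place, such marks. They were Ehmt1, Ehmt2, Wiz, Zfp644, Suv39h1, Suv39h2, Setdb1 and Setdb2. All 8 passed the filter on low values in both tables.

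Reprogramming was driven by doxycycline (DOX, 1 µg/ml), which switched on the reprogramming factors in mouse embryonic fibroblasts (MEF). The groups, each with 3 libraries, were DOX with 3C and the inhibitor UNC0638 (DOX 3C UNC), DOX with 3C (DOX 3C), DOX with UNC0638 (DOX UNC) and DOX alone (DOX). The 3 compounds of 3C were TGF-b RI Kinase Inhibitor II, which blocks the type I TGF-beta receptor (at 250 nM), CHIR99021 (3 µM), which blocks glycogen synthase kinase, and the vitamin L-ascorbic acid (50 µg/ml). UNC0638 was added at 1 µM. The iPSC came from MEF reprogrammed with UNC0638 for the first 48 hours or with DMSO, 3 libraries each. All cells of the reprogramming groups shared their background: MEF from midgestation embryos (E13.5 to E15.5), heterozygous for Rosa26-rtTA and an Oct4-GFP reporter. The factors came from either a heterozygous OKSM allele or a homozygous OKS allele, both inducible by doxycycline. Which library carried which allele was not given, and neither was the day on which the reprogramming cells were lysed for RNA. The cells grew on irradiated feeder cells, themselves fibroblasts, whose RNA can be part of these libraries. Nothing says that the libraries of a group came from separate cultures or embryos, so p-values measure the spread between these libraries, which may be technical.

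H3K9 methylation marks silent chromatin and is known as a barrier to reprogramming. G9a (encoded by Ehmt2) and GLP (Ehmt1) work as a pair that adds mono- and dimethylation, and UNC0638 occupies the pocket in which both bind their histone substrate. WIZ and ZNF644 (Zfp644 in mouse) are zinc finger proteins that join the pair and help bring it to chromatin. SUV39H1 and SUV39H2 add trimethylation at heterochromatin around centromeres, SETDB1 does so at retroelements and at genes bound by KRAB zinc finger proteins, and SETDB2 is its less studied relative. Transcript levels do not measure the activity of these enzymes.

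Libraries held 10.62 to 20.21 units of 1e+06 reads in genes for reprogramming and 21.59 to 25.41 for iPSC. Reprogramming values are normalised read counts (a library's reads divided by 1 factor for that library) and iPSC values are CPM, the reads of a gene per 1e+06 reads counted. Neither is divided by transcript length, so no level is compared between genes. Nanog, a defining pluripotency gene, stood at 2.32 to 8.93 normalised counts in the reprogramming libraries and at 426 to 487 CPM in the iPSC. Dppa5a, another pluripotency gene, was at 0 in all 12 reprogramming libraries and at 670 to 792 CPM in the iPSC. These 2 genes went with the labels of both cell types. Fibroblast markers summed over 8 genes were abundant in all 12 reprogramming libraries, at 129169 to 266852 normalised counts. They were present in the iPSC too, at 5863 to 9469 CPM. The units differ, so this sum was not used to tell the cell types apart. DOX 3C replicate 1 stood apart in erythroid transcripts, with 1253 normalised counts of the globin gene Hbb-bs against 53.3 and 92.7 in DOX 3C replicates 2 and 3; calls of the 8 genes that use it are also given without it.

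Ehmt1 and Ehmt2, the targets of the inhibitor, kept nearly level transcripts through all 4 reprogramming conditions. Over the 12 libraries the SD of the log2 normalised count was 0.07 for Ehmt1 and 0.05 for Ehmt2. The median over genes with a mean of at least 100 normalised counts was 0.177. Zfp644 (0.104), Setdb1 (0.111), Setdb2 (0.132) and Wiz (0.170) also lay below it, so a low spread was not particular to the targets. Suv39h1 (0.180) and Suv39h2 (0.179) lay just above. The genes behind that median were also read less, with a median mean of 649 against 1873 for Ehmt1 and 4231 for Ehmt2. Ehmt1 (ENSMUSG00000036893) lies on chromosome 2, 24790769 to 24919643, and Ehmt2 (ENSMUSG00000013787) on chromosome 17, 34898463 to 34914073 (GRCm38.p6). The stretches around their annotated starts, of which Ehmt2 has a pair, run from 250 bases before to 50 after (RefSeq, GRCm38.p6). They are shown because they belong to the targets of the drug. They can be set against those of the members called upward in DOX 3C relative to DOX. Capitals mark matches on either strand to the E-box CACGTG, the CCAAT box, the E2F motifs TTTCGCGC and TTTGGCGC, and the TCF/LEF motif CTTTGA.
Ehmt1 (chr2:24919560-24919859, minus strand): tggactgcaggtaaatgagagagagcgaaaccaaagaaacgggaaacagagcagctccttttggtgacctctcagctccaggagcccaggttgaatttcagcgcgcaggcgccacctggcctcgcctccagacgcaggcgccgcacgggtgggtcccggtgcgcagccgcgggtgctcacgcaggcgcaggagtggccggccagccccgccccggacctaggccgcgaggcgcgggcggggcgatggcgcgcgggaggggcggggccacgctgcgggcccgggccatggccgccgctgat
Ehmt2, first start (chr17:34898224-34898523, plus strand): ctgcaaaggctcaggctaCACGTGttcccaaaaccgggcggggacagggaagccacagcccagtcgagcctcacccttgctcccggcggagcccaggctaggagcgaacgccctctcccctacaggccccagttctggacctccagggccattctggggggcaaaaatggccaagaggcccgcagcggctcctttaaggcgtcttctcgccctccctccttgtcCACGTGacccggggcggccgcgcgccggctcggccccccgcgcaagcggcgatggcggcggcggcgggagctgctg
Ehmt2, second start (chr17:34898720-34899019, plus strand): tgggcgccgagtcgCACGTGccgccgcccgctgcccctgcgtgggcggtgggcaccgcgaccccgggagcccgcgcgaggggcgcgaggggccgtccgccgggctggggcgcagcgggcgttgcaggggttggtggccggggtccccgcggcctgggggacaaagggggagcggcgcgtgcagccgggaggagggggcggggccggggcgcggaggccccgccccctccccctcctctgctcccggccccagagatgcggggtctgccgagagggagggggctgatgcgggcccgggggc
The Ehmt2 windows held 2 E-boxes at the first start and 1 at the second, and the Ehmt1 stretch held none of the motifs in capitals. An E-box was found in 7.15% of all 32851 such promoter windows of the table. The GC box GGGCGG, left in lower case, occurred 3 times in the Ehmt1 window and 2 and 4 times in those of Ehmt2, and at least once in 35.7% of all windows. GC content was 71.7% for Ehmt1 and 70.3% and 82.7% for Ehmt2, where the median window had 52.7%.

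In basal medium no change in the transcripts of the inhibitor's targets was detected. Ehmt1 had 1952, 1917 and 1922 normalised counts in DOX UNC against 1965.5, 1905 and 1859.6 in DOX. Ehmt2 had 4211, 4267 and 4152 normalised counts in DOX UNC against 4131, 4528 and 4028 in DOX. The groups overlapped for both genes. The log2 fold change was 0.02 ± 0.05 (SE) for Ehmt1, with a 95% interval of -0.09 to 0.12 and adjusted p = 0.962 (limma across all genes, Benjamini-Hochberg). For Ehmt2 it was -0.0047 ± 0.05, with an interval of -0.12 to 0.11 and adjusted p = 0.993.

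With 3C in the medium, Ehmt1 was a little lower under the inhibitor and Ehmt2 was not separated. Ehmt1 had 1775, 1846 and 1647 normalised counts in DOX 3C UNC against 1912, 1907 and 1862 in DOX 3C. All 3 DOX 3C UNC libraries were below all 3 DOX 3C libraries, but the log2 fold change of -0.11 ± 0.05 did not pass the test (interval -0.22 to -0.0015, adjusted p = 0.189). Ehmt2 had 4033, 4142 and 4291 normalised counts in DOX 3C UNC against 4147, 4353 and 4493 in DOX 3C. These groups overlapped, at -0.06 ± 0.05 (interval -0.17 to 0.05, adjusted p = 0.516). Since fewer cells of a type and less RNA per cell cannot be told apart in bulk libraries, neither can they in any difference given here.

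Ordered by mean, Ehmt1 stood at 1930.3 ± 19.2 normalised counts in DOX UNC, 1909.9 ± 53.1 in DOX, 1894 ± 27.9 in DOX 3C and 1756 ± 101 in DOX 3C UNC (SD, n = 3 each). The first 3 lay within their spread of each other, and DOX 3C UNC alone had no library inside the range of another group. Ehmt2 was ordered as DOX 3C (4331 ± 174), DOX (4229 ± 264), DOX UNC (4210.0 ± 57.5) and DOX 3C UNC (4155 ± 129), with no neighbours apart by more than their spread. The number of Ehmt1 reads per Ehmt2 read was 0.384 to 0.446 in DOX 3C UNC, 0.414 to 0.461 in DOX 3C, 0.449 to 0.464 in DOX UNC and 0.421 to 0.476 in DOX, ranges that meet or overlap between most groups. Among 10806 genes compared, those whose pattern over the 12 libraries was nearest to that of Ehmt1 were Smchd1, Tial1 and Fam160b1, with root mean square differences of 0.0333, 0.0348 and 0.0378 on the log2 scale. Nearest to Ehmt2 were Szrd1, U2af2 and Inppl1, at 0.0329, 0.0367 and 0.0397. Smchd1, for example, ranged from 3545 to 4232 normalised counts over the 12 libraries.

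**Figure D1:**
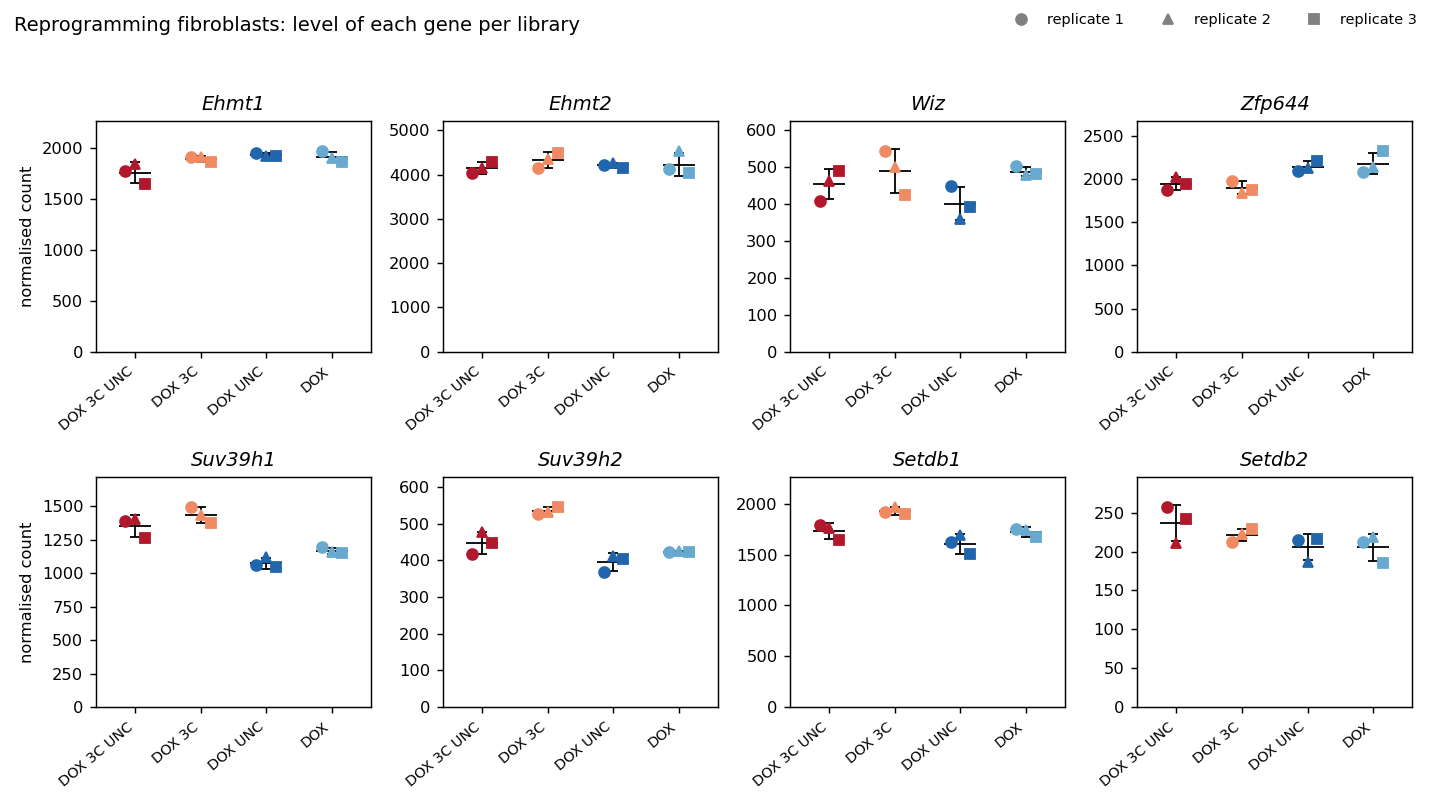
Normalised count (y axis, from 0) of each of the 8 genes in the 12 reprogramming libraries; points are single libraries with replicate numbers by shape, and bars give mean ± SD (n = 3). Ehmt1 and Ehmt2 lie nearly level across the groups, while Suv39h1 and Suv39h2 stand higher in DOX 3C than in DOX.

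Wiz and Zfp644 encode the zinc finger partners of the pair. Wiz (ENSMUSG00000024050, chromosome 17, 32354047 to 32389501) had 448, 359.5 and 393 normalised counts in DOX UNC against 501, 478 and 482 in DOX. Every DOX UNC library was below every DOX library, by 18.1% on average on the fitted scale. The log2 fold change was -0.29 ± 0.10, with an interval of -0.49 to -0.08. Its unadjusted p was 0.00886 and its adjusted p 0.280, with 0.119 to 0.667 under the alternatives, so the gene was not called by any. In 3C medium the same comparison overlapped, with 409, 462 and 488 normalised counts in DOX 3C UNC against 542, 501 and 425 in DOX 3C (-0.11 ± 0.10, adjusted p = 0.534). Wiz was covered by 328 to 676 reads per library, and counting error alone was up to 5.52%.

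Zfp644 (ENSMUSG00000049606, chromosome 5, 106616739 to 106696834) responded to 3C and not detectably to the inhibitor. It had 1985, 1846 and 1875 normalised counts in DOX 3C against 2082, 2142 and 2324 in DOX. All 3 DOX 3C libraries were below the DOX libraries, as held for 28.4% of all genes tested. Zfp644 fell by 0.20 ± 0.06 on the log2 scale, or by 12.8% (interval -0.31 to -0.08, adjusted p = 0.00632). Without DOX 3C replicate 1 the value was -0.23 (adjusted p = 0.00555). In the presence of the inhibitor it had 1873, 2032 and 1943 normalised counts in DOX 3C UNC against 2093, 2134 and 2215 in DOX UNC. These groups also did not overlap, and Zfp644 fell by 0.14 ± 0.06 (adjusted p = 0.0450). That second call was marginal: the adjusted p ranged from 0.0265 to 0.152 over 13 alternatives. It missed the threshold without DOX UNC replicate 2 (0.0793) or 3 (0.152), or without DOX 3C UNC replicate 1 (0.136) or 3 (0.0936). It also did so with no filter on low values (0.0867) and with only the 6 libraries of the comparison in the fit (0.0608). The inhibitor's own effect on Zfp644 was -0.02 in basal medium (adjusted p = 0.949) and 0.04 in 3C medium (adjusted p = 0.740).

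Suv39h1 and Suv39h2, which encode the trimethylating enzymes of pericentromeric heterochromatin, had the largest increases among the 8 genes when 3C was added to DOX. Suv39h1 (ENSMUSG00000039231) lies on chromosome X, 8061171 to 8074760, Suv39h2 (ENSMUSG00000026646) on chromosome 2, 3455815 to 3474986, and Setdb1 (ENSMUSG00000015697), which also rose, on chromosome 3, 95323525 to 95357202. Their promoter windows are shown because these 3 members were called upward in DOX 3C relative to DOX. With the inhibitor present, only Suv39h1 of the 3 was called. Suv39h1 has more than 1 annotated start, and windows at both are given. Capitals mark the same motifs as in the windows of Ehmt1 and Ehmt2.
Suv39h1, first start (chrX:8074711-8075010, minus strand): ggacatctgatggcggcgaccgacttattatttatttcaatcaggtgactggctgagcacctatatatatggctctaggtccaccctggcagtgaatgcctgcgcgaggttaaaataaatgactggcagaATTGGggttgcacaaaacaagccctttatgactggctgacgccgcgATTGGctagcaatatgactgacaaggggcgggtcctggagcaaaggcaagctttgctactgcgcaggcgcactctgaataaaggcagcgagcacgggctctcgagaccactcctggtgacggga
Suv39h1, second start (chrX:8074312-8074611, minus strand): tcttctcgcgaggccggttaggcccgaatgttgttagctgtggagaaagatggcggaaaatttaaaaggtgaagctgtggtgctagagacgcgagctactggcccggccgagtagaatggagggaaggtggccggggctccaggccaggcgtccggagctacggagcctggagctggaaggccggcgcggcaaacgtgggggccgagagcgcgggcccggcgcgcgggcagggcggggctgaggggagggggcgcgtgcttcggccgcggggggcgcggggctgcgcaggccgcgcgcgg
Suv39h2 (chr2:3474937-3475236, minus strand): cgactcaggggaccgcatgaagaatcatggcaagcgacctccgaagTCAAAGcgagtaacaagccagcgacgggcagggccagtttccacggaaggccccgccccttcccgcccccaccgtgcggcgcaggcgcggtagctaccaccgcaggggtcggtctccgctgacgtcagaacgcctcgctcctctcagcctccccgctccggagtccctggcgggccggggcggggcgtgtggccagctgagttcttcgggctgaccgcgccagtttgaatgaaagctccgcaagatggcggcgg
Setdb1 (chr3:95357153-95357452, minus strand): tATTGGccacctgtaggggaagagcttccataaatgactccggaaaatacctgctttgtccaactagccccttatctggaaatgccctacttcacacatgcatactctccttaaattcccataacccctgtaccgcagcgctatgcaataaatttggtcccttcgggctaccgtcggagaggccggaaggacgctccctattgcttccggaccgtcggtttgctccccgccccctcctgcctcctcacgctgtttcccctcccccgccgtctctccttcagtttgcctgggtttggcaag
The first Suv39h1 window held 2 CCAAT boxes, written as ATTGG where the match is on the other strand, and Setdb1 held 1; a CCAAT box occurred in 37.4% of all windows. Suv39h2 held 1 TCF/LEF match, the motif of the factors that act downstream of the kinase blocked by CHIR99021. A match occurred in 16% of all windows. Wiz also held 1, in 1 of its windows, and was not called in DOX 3C relative to DOX (limma, adjusted p = 0.995). CCAAT boxes also lay in windows of Wiz, of Setdb2, not called there either, and of Zfp644, which fell. No window of the 8 genes held an E2F motif (0.813% of all windows) or the SMAD motif GTCTAGAC (0.213%). None of the motifs in capitals occurred in windows of all of Suv39h1, Suv39h2 and Setdb1. The GC box did: 1 in each window of Suv39h1, 3 in that of Suv39h2 and 1 in that of Setdb1, where 35.7% of all windows held one. GC content was 53.0% and 71.0% in the windows of Suv39h1, 68.3% in that of Suv39h2 and 55.3% in that of Setdb1.

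Suv39h1 had 1496, 1432 and 1375 normalised counts in DOX 3C against 1193, 1161 and 1151 in DOX. Every DOX 3C library was above every DOX library, as held for 29.2% of all genes tested. The gene rose by 0.30 ± 0.06 on the log2 scale, or by 22.7% (interval 0.17 to 0.42, adjusted p = 0.000351). With the inhibitor present throughout, it had 1389.7, 1409 and 1263 normalised counts in DOX 3C UNC against 1059.8, 1119 and 1044 in DOX UNC. Again no library overlapped, and the rise was 0.33 ± 0.06, or 25.9% (interval 0.21 to 0.45, adjusted p = 0.000116). Suv39h1 was called in both comparisons under all 13 alternatives, with adjusted p of 5.65e-05 to 0.00278 without UNC and 4.51e-06 to 0.00109 with UNC. Without DOX 3C replicate 1, the library rich in erythroid transcripts, the rise without UNC was 0.26 (adjusted p = 0.00278).

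Suv39h2 had 527, 532 and 546 normalised counts in DOX 3C against 422, 426 and 422 in DOX. Every DOX 3C library was above the DOX libraries, whose values were nearly equal. The gene rose by 0.34 ± 0.07, or by 26.3% (interval 0.18 to 0.49, adjusted p = 0.000810), and by 0.35 without DOX 3C replicate 1 (adjusted p = 0.00243). It was called under all 13 alternatives, with adjusted p of 0.000276 to 0.00476. Comparing DOX 3C UNC with DOX UNC, it had 417, 478 and 446 normalised counts against 367, 413 and 405. These groups did not overlap, but the difference of 0.18 ± 0.07 missed the threshold (adjusted p = 0.0527). It passed with the replicate number as a block (adjusted p = 0.0360), without DOX UNC replicate 2 (0.0465) and without DOX 3C UNC replicate 1 (0.0228), in a range of 0.0228 to 0.212 over 13 alternatives.

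In the main fit, which left out the replicate number, Suv39h2 was also the single member called for the inhibitor. With that number as a block in limma, Setdb1 was called as well in 3C medium (adjusted p = 0.0294). Suv39h2 had 417, 478 and 446 normalised counts in DOX 3C UNC against 527, 532 and 546 in DOX 3C. All DOX 3C UNC libraries were below all DOX 3C libraries, and the gene fell by 0.26 ± 0.07, or by 16.5% (interval -0.41 to -0.11, adjusted p = 0.0254). Without DOX 3C replicate 1 it was -0.27 (adjusted p = 0.0467). The call was held by 9 of 13 alternatives, with adjusted p from 0.0106 to 0.0988. It missed the threshold without DOX 3C replicate 2 (0.0757) or 3 (0.0797) and without DOX 3C UNC replicate 1 (0.0988) or 3 (0.0707). In basal medium the inhibitor's effect on Suv39h2 was -0.10 ± 0.07 (adjusted p = 0.741), from 367, 413 and 405 normalised counts in DOX UNC against 422, 426 and 422 in DOX. The difference between the effects in both media was -0.16 ± 0.10 and did not pass the test (interval -0.38 to 0.06, adjusted p = 0.597), so the fall is not shown to be particular to 3C medium.

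The value of Suv39h2 is uncertain in 1 respect. Its span shares 18397 bases with Dclre1c, a nuclease gene of V(D)J recombination and DNA repair on the opposite strand. The shared bases are of whole gene spans, introns included, and how many lie in exons of both genes was not measured. The library kit keeps strand, but whether reads were counted by strand was not given. Without strand, reads from exons that overlap cannot be told apart. Dclre1c had 313 ± 25.5 normalised counts in DOX 3C and 202 ± 28.8 in DOX (SD, n = 3 each), a rise of 0.63 (adjusted p = 0.000162). It had 259 ± 26.1 normalised counts in DOX 3C UNC against 313 ± 25.5 in DOX 3C, a difference of -0.27 that was not called (adjusted p = 0.136). The part of Dclre1c in the Suv39h2 results was not tested. Setdb1 shares 75 bases with Cers2, a ceramide synthase gene that rose in 3C as well (0.24, adjusted p = 0.00174), and the span of Setdb2 lies inside that of the predicted gene Gm45935, for which no value was used here.

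Markers of proliferation and of other cell types also differed between the groups in which the 8 genes were compared. Summed over 20 genes, proliferation genes were at 67618 to 73328 normalised counts in DOX 3C UNC, 75277 to 79955 in DOX 3C, 87688 to 89959 in DOX UNC and 91115 to 94800 in DOX. Of the 20, 3 fell and 0 rose in DOX 3C UNC relative to DOX 3C (11.6% of all genes were called), and 10 fell and 0 rose in DOX 3C relative to DOX (49.4% of all genes). Fibroblast markers summed to 170672 to 187322 normalised counts in DOX 3C UNC, 129169 to 143976 in DOX 3C, 248445 to 266852 in DOX UNC and 216836 to 230262 in DOX. Of these 8, 5 rose and 0 fell in DOX 3C UNC relative to DOX 3C, 0 rose and 4 fell in DOX 3C relative to DOX, and 3 rose and 3 fell in DOX 3C UNC relative to DOX UNC. The endothelial markers Tek and Cdh5, the 2 of 5 that were tested, fell in both 3C comparisons. Cdh5 was near the floor, with a mean of 10.4 normalised counts in DOX against 2645 for Tek. Pecam1, Kdr and Emcn were too low to be tested, so these falls do not show a change in endothelial cells. Pou5f1 and Sox2, whose reads include those of the transgenes, fell in DOX 3C UNC relative to DOX 3C (-0.53 and -0.39) and in DOX 3C relative to DOX (-0.51 and -0.64). Of 4 epithelial markers 2 rose and 1 fell in DOX 3C relative to DOX. Macrophage markers summed to 109 to 458 normalised counts, with ranges that overlapped between all 4 groups. Within the groups some of them followed the replicate number, which the main fit did not include. Lyz2 was at 20.8 to 43.9 normalised counts in replicate 1 of the 4 groups and at 99.6 to 261 in replicates 2 and 3. Adgre1 was at 3.42 to 8.58 against 17.0 to 54.5, while Cd14 was not split in this way. The part of these differences in the results on the 8 genes was not tested.

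Setdb1 encodes the enzyme that silences retroelements with TRIM28. It had 1916, 1968 and 1895 normalised counts in DOX 3C against 1752, 1745 and 1669 in DOX. All DOX 3C libraries were above all DOX libraries, and the gene rose by 0.16 ± 0.06, or by 11.9% (interval 0.05 to 0.28, adjusted p = 0.0212). The adjusted p ranged from 0.00711 to 0.0806, and the threshold was missed without DOX replicate 3 (0.0806) or DOX 3C replicate 2 (0.0718). Without DOX 3C replicate 1 the rise was 0.17 (adjusted p = 0.0423). In the presence of the inhibitor the same addition gave 1794, 1758 and 1645 normalised counts in DOX 3C UNC against 1619, 1691 and 1504 in DOX UNC. These groups overlapped, and the difference of 0.11 ± 0.06 was not called (adjusted p = 0.109).

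Under the inhibitor Setdb1 was lower in 3C medium, short of the threshold. The 1794, 1758 and 1645 normalised counts of DOX 3C UNC all lay below the 1916, 1968 and 1895 of DOX 3C. The log2 fold change was -0.15 ± 0.06 (interval -0.27 to -0.04, adjusted p = 0.0808). With the replicate number as a block it was called (adjusted p = 0.0294), the only one of 13 alternatives in which it was; they ranged up to 0.275. In basal medium the groups overlapped (-0.10 ± 0.06, adjusted p = 0.604).

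Setdb2 (ENSMUSG00000071350, chromosome 14, 59402009 to 59440880) was covered least, by 127 to 301 reads per reprogramming library, with a counting error of up to 8.87%. It ranged over 211 to 257 normalised counts in DOX 3C UNC, 212 to 229 in DOX 3C, 186 to 216 in DOX UNC and 186 to 219 in DOX. The groups overlapped in each of the 4 comparisons and none was called. The largest difference, 0.20 ± 0.10 for 3C with UNC, had an adjusted p of 0.121; without DOX 3C UNC replicate 2 it was called (0.28, adjusted p = 0.0469), in a range of 0.0469 to 0.371. Differences of the size seen for Suv39h1 lie inside the interval for Setdb2 in 3C with UNC, which ran from -0.02 to 0.42.

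**Figure D2:**
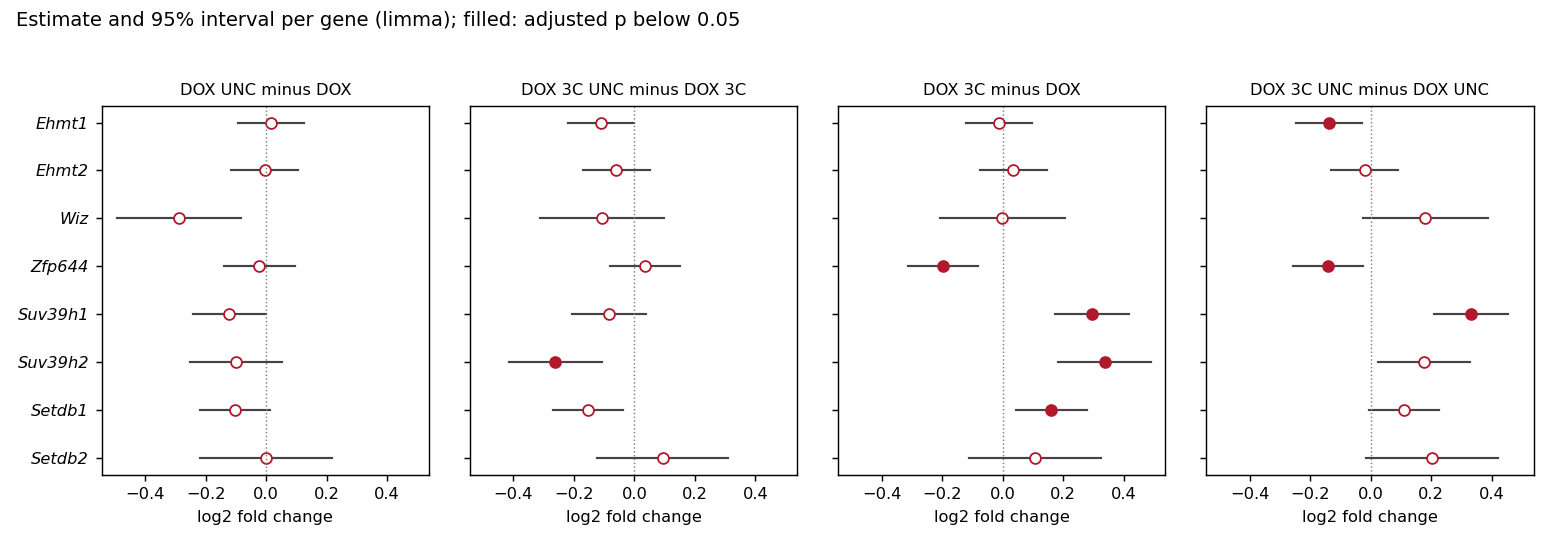
Log2 fold change (x axis) with its 95% interval for each of the 8 genes in the 4 reprogramming comparisons, from limma across 16138 genes; filled points have an adjusted p below 0.05. Suv39h1 is filled and to the right of 0 in both 3C comparisons, and Suv39h2 is the single filled point for the inhibitor.

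Counted over the 8 genes, the inhibitor in basal medium called 0, where 0.607% of 16138 genes were called (limma); edgeR and DESeq2 also called 0. At an unadjusted p below 0.05, limma counted 1 of the 8 (Wiz), edgeR 2 (Suv39h1 and Wiz) and DESeq2 1, where these tools counted 9.33%, 9.35% and 6.96% of the genes tested. In the same comparison 3 of the 8, Wiz, Suv39h1 and Suv39h2, had every DOX UNC library below every DOX library, as did 6.69% of the genes tested; none of the 3 was called. The median log2 fold change was -0.06 over the 8 genes and 0.0040 over all genes. With 3C in the medium the inhibitor called 1 of 8, Suv39h2, where 11.6% of all genes were called, so the count is close to the background. With the replicate number as a block it was 2 of 8, Setdb1 being added. In 3 of the 8 (Ehmt1, Suv39h2 and Setdb1) every DOX 3C UNC library lay below every DOX 3C library. The same held for 12.7% of the genes tested. In 3C medium the median was -0.10 over the 8 genes and -0.0025 over all genes. Estimates of 6 of the 8 were negative, and the share of negative estimates over all genes was not counted.

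Adding 3C called 4 of 8 without the inhibitor (Suv39h1, Suv39h2 and Setdb1 up, Zfp644 down), where 49.4% of all genes were called. With the inhibitor it called 3 of 8 (Suv39h1 up, Ehmt1 and Zfp644 down), where 47.4% of all genes were called. Neither count stands apart from its background, and the values of the single genes are what these comparisons show. Libraries without overlap were common: 57.6% of all genes without the inhibitor and 54.4% with it. Among the 8 genes, 3 lay higher and 1 lower without the inhibitor, and 2 higher and 2 lower with it. The fall of Ehmt1 in DOX 3C UNC relative to DOX UNC was 0.14 ± 0.05 on the log2 scale (-9.10%, adjusted p = 0.0353), from 1775, 1846 and 1647 normalised counts against 1952, 1917 and 1922. It was called under 7 of 13 alternatives, with adjusted p from 0.0157 to 0.183. The threshold was missed without DOX UNC replicate 1 (0.0865), 2 (0.0640) or 3 (0.0725), without DOX 3C UNC replicate 3 (0.183), with no filter (0.0716) and with 6 libraries in the fit (0.0741). Wiz was not called there (0.18 ± 0.10, adjusted p = 0.142) but was without DOX UNC replicate 1 (0.27, adjusted p = 0.0457), in a range of 0.0457 to 0.445. Ehmt2 was not called in either 3C comparison (0.04 and -0.02, adjusted p = 0.604 and 0.795).

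These comparisons share libraries: DOX serves both the inhibitor and the 3C comparison in basal medium, and DOX 3C UNC serves 2 comparisons likewise. The difference between the inhibitor's effects with and without 3C called 0 of the 8 genes, where 0.062% of all genes were called. At an unadjusted p below 0.05 the count was also 0 with limma, edgeR and DESeq2, which counted 11.1%, 11.3% and 8.62% of the genes tested, so a count of 0 among 8 genes is near that background. The estimates ran from -0.16 for Suv39h2 to 0.18 for Wiz.

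The 40 tested genes of 5 other H3K9 pathway lists spanned a wider range of changes under 3C than the 8 enzymes and partners did. A range widens with the number of genes, so this does not show the 8 to be steadier. In DOX 3C relative to DOX, 49.4% of all genes were called. Among 7 SETDB1 and HUSH partners, Atf7ip, whose product stabilises SETDB1, rose by 0.67 ± 0.06 in DOX 3C relative to DOX (adjusted p = 6.15e-08). Its relative Atf7ip2 fell by 1.66 ± 0.23 and Morc2a, a chromatin ATPase that works with HUSH, by 0.26 ± 0.06, while the other 4 were not called. Of 11 genes listed as HP1 and other chromatin readers, not all of which bind H3K9 methylation, 1 rose and 7 fell. Those that fell included Zmynd8 (-0.75 ± 0.05), the HP1 gene Cbx5 (-0.47 ± 0.06) and Uhrf1 (-0.22 ± 0.05), which brings DNA methyltransferase to replicating DNA. Of 10 tested demethylase genes, which encode the enzymes that remove the mark, 2 rose and 8 fell, with Jmjd1c at -0.64 ± 0.06, Kdm3b at -0.40 ± 0.05 and Kdm3a at -0.42 ± 0.06. The medians were 0.07 for the 8 enzymes and partners, -0.06 for the SETDB1 partners, -0.20 for the readers, -0.27 for the demethylases and 0.02 over all genes. Of 8 other G9a or GLP associated genes 1 rose and 3 fell. Of 4 tested enzymes of the PRDM and SETMAR kinds 0 rose and 2 fell (Mecom at -0.997 and Prdm2 at -0.38). The counts for both these lists and for the SETDB1 partners were near the 49.4% of all genes.

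Without the inhibitor, 3C called 27 of the 40 tested genes of these 5 lists, where 49.4% of all genes were called. With it, 24 of the 40 were called (47.4% of all genes): 1 rose and 2 fell among the SETDB1 partners, 0 and 7 among the readers, 2 and 8 among the demethylases, 0 and 3 among the other associated genes and 0 and 1 among the PRDM and SETMAR enzymes. Atf7ip was at 0.85 ± 0.06, Jmjd1c at -0.65 ± 0.06 and Cbx5 at -0.57 ± 0.06 there. In 3C medium the inhibitor called 8 of the 40 tested genes of these 5 lists (20%, where 11.6% of all genes were called), 1 upward and 7 downward. Zmynd8 rose (0.34 ± 0.05, adjusted p = 0.000541), while Kdm7a (-0.36 ± 0.06), Kdm3a, Kdm3b, Uhrf1, Dnmt1, Zfp462 and Morc2a fell. In basal medium it called 1 of the 40, Lrif1, an HP1-binding protein gene (-0.53 ± 0.11, adjusted p = 0.0269), where 0.607% of all genes were called, and the interaction and the iPSC comparison called 0 of their tested members.

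**Figure D3:**
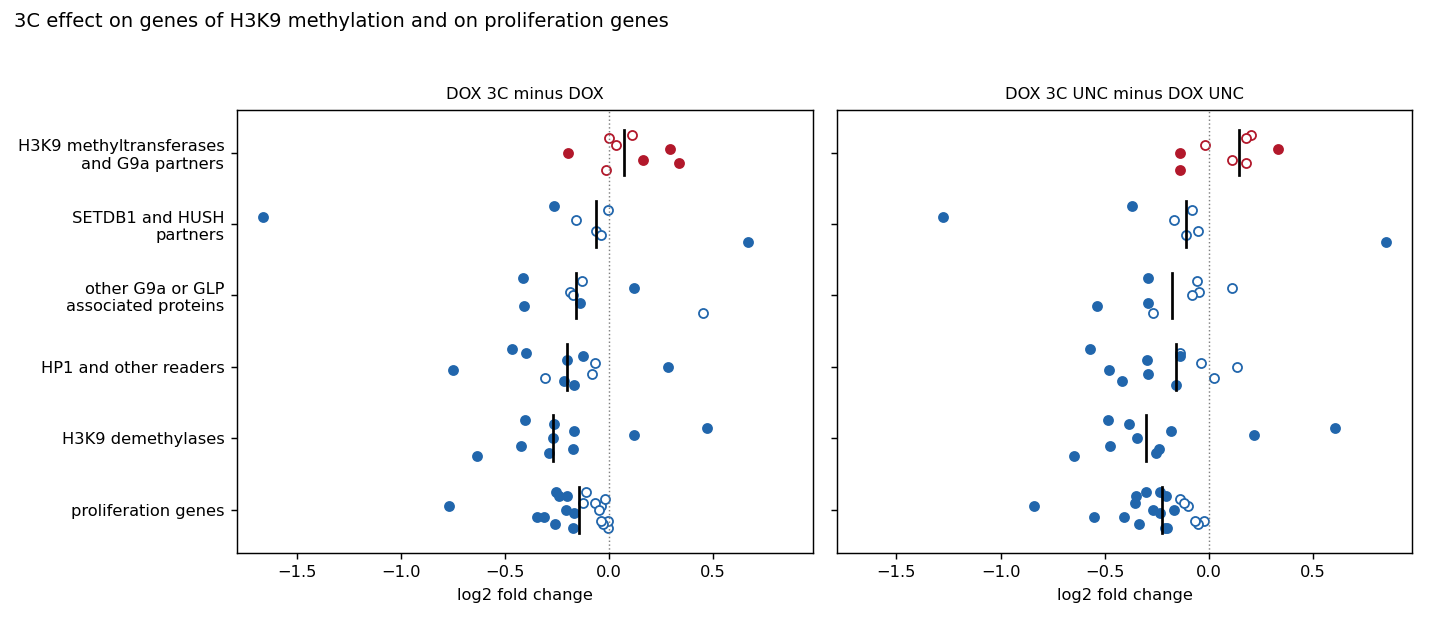
Log2 fold change (x axis) of each tested gene for 3C without and with the inhibitor, by gene list (rows); filled points have an adjusted p below 0.05 and the vertical bar is the list's median. The 8 enzymes and partners have medians of 0.07 and 0.14, to the right of those of the other lists drawn.

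In the iPSC, exposure to UNC0638 in the first 48 hours called 0 of the 8 genes, where 1.31% of 17987 genes were called (edgeR quasi-likelihood test). At an unadjusted p below 0.05 edgeR and DESeq2 both counted 0 of the 8, where they counted 12.3% and 9.53% of the genes tested. Ehmt1 had 108, 104 and 109 CPM in iPSC from UNC0638 against 106, 104 and 106 CPM in iPSC from DMSO, with overlapping groups (0.03 ± 0.05, interval -0.08 to 0.14, adjusted p = 0.864). Ehmt2 had 246, 240.1 and 242 CPM in iPSC from UNC0638 against 254, 242 and 230.5 CPM in iPSC from DMSO, again overlapping (0.01 ± 0.06, interval -0.11 to 0.13, adjusted p = 0.958). In percent, these intervals were -5.67% to 10.5% for Ehmt1 and -7.54% to 9.79% for Ehmt2. Suv39h1 varied most between replicates, with 29.2, 34.5 and 37.7 CPM in iPSC from UNC0638 against 32.5, 34.8 and 42.2 CPM in iPSC from DMSO (-0.11 ± 0.11, interval -0.35 to 0.14, adjusted p = 0.742).

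Suv39h2, called under the inhibitor in reprogramming cells, had 35.4, 38.7 and 36.4 CPM in iPSC from UNC0638 against 41.8, 37.2 and 37.2 CPM in iPSC from DMSO. The groups overlapped (-0.06 ± 0.07, adjusted p = 0.775). Wiz (0.06), Zfp644 (0.02), Setdb1 (0.05) and Setdb2 (0.15) overlapped too, with adjusted p of 0.714, 0.924, 0.774 and 0.573. Fibroblast markers were higher in iPSC from UNC0638, where the 8 genes summed to 8093 to 9469 CPM, against 5863 to 6431 CPM in iPSC from DMSO, and 7 of the 8 rose. The part of that difference in the members' values was not tested.

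**Figure D4:**
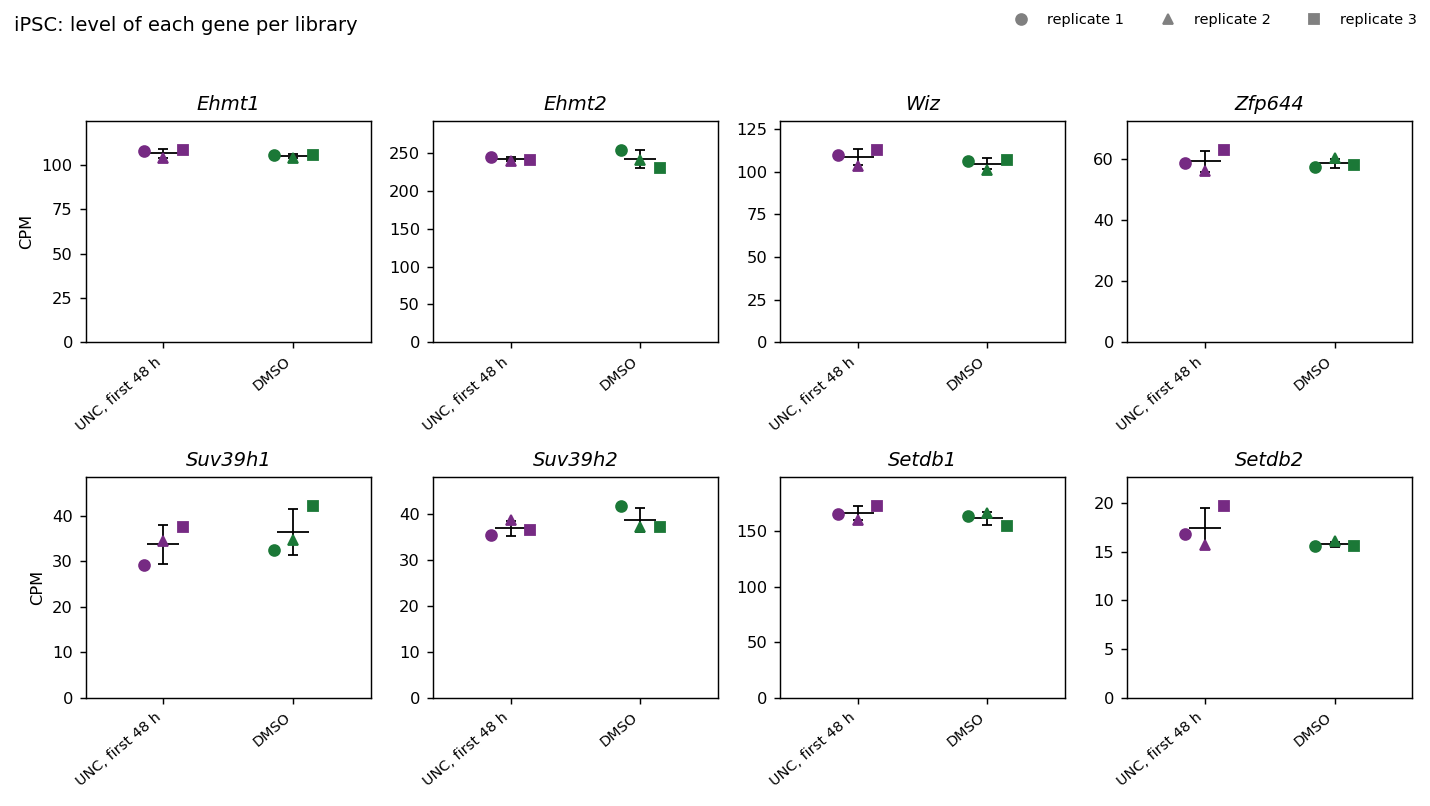
CPM (y axis, from 0) of each of the 8 genes in iPSC from reprogramming with UNC0638 for the first 48 hours (left) and with DMSO (right); points are libraries and bars give mean ± SD (n = 3). The groups overlap for all 8 genes.

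Set side by side, the levels of some members differed between iPSC and reprogramming fibroblasts. The tables were normalised and made separately, so these are CPM of each table's own reads with no test. Wiz had 105 ± 3.38 CPM in iPSC from DMSO and 31.4 ± 0.821 CPM in DOX, a ratio of 3.34 and the farthest from 1 of the 8. Setdb1 had 162 ± 5.86 against 111 ± 3.12 CPM (ratio 1.46) and Suv39h2 38.7 ± 2.68 against 27.3 ± 0.204 CPM (ratio 1.42). Zfp644 and Suv39h1 went the other way, at 58.6 ± 1.44 against 141 ± 7.91 CPM (ratio 0.417) and at 36.5 ± 5.09 against 75.3 ± 1.47 CPM (ratio 0.485). The remaining genes lay nearest to 1, Ehmt1 at 0.855, Ehmt2 at 0.888 and Setdb2 at 1.19 (SD, n = 3 for each level). Reads of Suv39h2 per read of Suv39h1 were 0.880 to 1.29 in iPSC from DMSO and 0.354 to 0.367 in DOX.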

How the data were processed

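Per the labels, total RNA libraries were made with a stranded, ribosomal RNA depleting kit. The submitters' processing notes name the build mm10 and the tools HTSeq 0.5.4p3, TopHat2 2.1.0, DESeq (no version) and SAMtools 1.8; their settings, and whether strand was used in counting, were not given. The authors deposited the reprogramming table as a normalised signal, counts divided by 1 factor per library, from which whole reads were recovered for 100% of values within 0.01 read. The iPSC table was deposited as raw counts. The 2 columns of the reprogramming table that matched no listed sample were not used, and 10 samples of chromatin profiling were not analysed here. Symbols matched 54042 of 54109 and 54723 of 54838 identifiers.

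Reprogramming values were tested as log2(value + 1) with limma 3.58.1 (empirical Bayes with trend, R 4.3.3) over all 12 libraries, for the 16138 genes that reached 10 in 3 or more libraries. Fold changes are on that scale. For the iPSC counts the quasi-likelihood test of edgeR 4.0.16 was used, with TMM scaling and its default filter. P-values were adjusted over all genes tested and called below 0.05. Alternatives were edgeR and DESeq2 1.42.0, other pseudocounts, no filter, a replicate block, smaller fits and leaving out each library. The tests were also run on simulated counts without a replicate effect, so that run does not bear on the pairing of libraries. Squared differences between replicate pairs were 3.14 to 11.0 times those of counting error alone (chi-square per degree of freedom, 18 pairs).

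Replicate numbers were taken to pair libraries where deviations of all 3 same-numbered pairs correlated above 0.1. This held for UNC with 3C (0.110 to 0.191), 3C without UNC (0.106 to 0.156) and 3C with UNC (0.155 to 0.205). The numbers come from the labels, which do not say what they share. For the iPSC from DMSO, titles and descriptions disagree on the number, and that of the title was used. The members and gene lists were chosen with earlier results of these data known. All 8 members are named, and of each list at most the 3 genes with the smallest p in a comparison. Promoter windows are from RefSeq (GRCm38.p6), and all 8 members matched by symbol. Intervals and counting errors cover the error named only, and reads without molecular identifiers are not independent molecules.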

Additional observations from a re-analysis of the deposited data

How the results depend on the processing

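Of 632 values of the 8 genes under the alternatives, 606 kept their side of the threshold and, where called, their direction; for a gene called in neither, a change of sign within 1 SE was allowed. Another 18 lost a call, 6 gained one, 0 called values reversed and 2 uncalled ones moved: Wiz to 0.10 for 3C without UNC when DOX 3C replicate 3 was left out, and Suv39h1 to 0.0071 in the iPSC when DMSO replicate 3 was left out. For UNC with 3C the number of the 8 genes called was 2 with the replicate block and 0 to 1 with single libraries left out. In the comparisons that met the pairing rule the block changed the calls of Setdb1 (UNC with 3C) and Suv39h2 (3C with UNC) and no other. For 3C with UNC the number called was 1 with no filter, 1 with only the 6 libraries compared, and 1 to 4 with single libraries left out. The count stayed at 0 for UNC without 3C, for the interaction and for the iPSC under every alternative run. In those comparisons the numbers did not meet the pairing rule (correlations of 0.0940 to 0.223, 0.0595 to 0.223 and 0.0491 to 0.109, with 6 of 6 reprogramming and 4 of 6 iPSC libraries correlating best with their own number), and the block changed no call of the 8 genes there. Over all genes, calls for UNC without 3C numbered 98, against 409 with the block, 168 with DESeq2 and 19 to 144 with a library left out (19 and 34 without DOX UNC replicates 3 and 2, 25 and 48 without DOX replicates 1 and 3). For UNC with 3C they numbered 1880, against 2871 with the block, 1137 without DOX 3C UNC replicate 3 and 1039 without DOX 3C replicate 2. For the interaction they numbered 10, against 413, 160 with DESeq2 and 0 to 70 with a library left out, and for the iPSC 236, against 407, 395, 823 with no filter and 85, 111 and 156 without UNC0638 replicate 1, UNC0638 replicate 2 and DMSO replicate 1. The cause of these shifts was not tested. Depth limits Setdb2, Suv39h2 and Wiz most, whose lowest libraries held 127, 288 and 328 of their reads.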
